A study of Mus musculus with 9 samples.

Results

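Irises of Sham VEGFR3 fl/fl and injured VEGFR3 fl/fl mice were compared across all genes, with attention to the genes that were lower after injury and to the resident tissue of the iris. The comparison took 6 of the 9 libraries of the series, 3 of each group, chosen by their titles and treatment labels alone. Each library pooled 3 irises, so that the error bars describe pools and not single mice. Both groups carried floxed VEGFR3 without Cre and are labelled WT. In corneal alkali injury (CAI), mice aged 6 weeks had sodium hydroxide (0.5 μL, 1 M) applied to the cornea for 60 seconds, and the Sham group received PBS in its place. The study's protocol gives tamoxifen at 80 mg/kg on days 13 to 17 after injury, without separating the groups, and irises were taken at 10 weeks, 28 days after injury. The remaining 3 libraries came from injured VEGFR3 iLECko mice, in which Prox1 drives a tamoxifen-inducible Cre in lymphatic endothelium. They entered the model fit, and for named genes their levels and their difference from injured VEGFR3 fl/fl are given at the end. The labels do not say which mice made up which pool, so the p-values measure the spread between these pools.

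The iris is a muscular, pigmented diaphragm behind the cornea. Its smooth sphincter and dilator muscles set the pupil under cholinergic and adrenergic nerves, its posterior pigmented epithelium derives from the optic cup, and its stroma holds melanocytes, fibroblasts, Schwann cells and vessels. The neighbouring ciliary body secretes aqueous humor, and the lens, cornea and retina lie close enough to enter a dissection. Pigment is made in melanosomes by tyrosinase and its relatives, whose genes are targets of the transcription factor MITF. PAX6, OTX2 and SIX3 belong to the network of transcription factors that patterns the optic cup.

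Total counts were 16617199, 16838899 and 16703882 in Sham and 18306363, 17538971 and 18003597 in injured libraries. Levels are given as CPM, counts relative to library size on the TMM scale, which do not correct for gene length, so that levels of different genes are not compared. Of 18349 genes listed, 15010 had enough counts for a test with edgeR (quasi-likelihood F test, Benjamini-Hochberg adjusted). A gene is called lower or higher, a DEG, where it passed both an adjusted p of 0.05 and a fold change of 1.5 in either direction.

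Single libraries stood apart in ways that bear on some results, as the plot of genes that single out libraries shows. Injured replicate 1 lay at -67.4 on the second principal component, which held 9.45% of the variance, whereas the other libraries lay between -8.13 and 31.7. It held 1442 counts of Angptl7 and 1921 of Aldh3a1, a gene of corneal cells, against 14 to 17 and 33 to 178 counts in the other injured libraries. Injured replicate 2 held 2797 counts of the rod transducin gene Gnat1 against 168 and 94 in its group, and 29835 of Hmox1, the heme oxygenase, against 3342 and 3828. Gnat1 also varied among the Sham libraries, with 3776, 433 and 1308 counts, though less in fold than among the injured ones. The keratin genes Krt5 and Krt13 had 328 and 276 counts in Sham replicate 1, 148 and 132 in replicate 2 and 7 and 12 in replicate 3. Genes of the Y chromosome averaged 3.76, 4.27 and 5.29 on the log2 CPM scale in Sham and 4.87, 4.94 and 0.21 in injured libraries, so that replicate 3 of the injured group nearly lacked them. The part of neighbouring tissue in the results below was not tested. For the sex of the pools, a Y-linked covariate was run as an alternative and gave 2652 lower and 3311 higher genes. Beyond that the part of sex was not tested. Values without single libraries are given where they change a call.

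**Figure D1:**
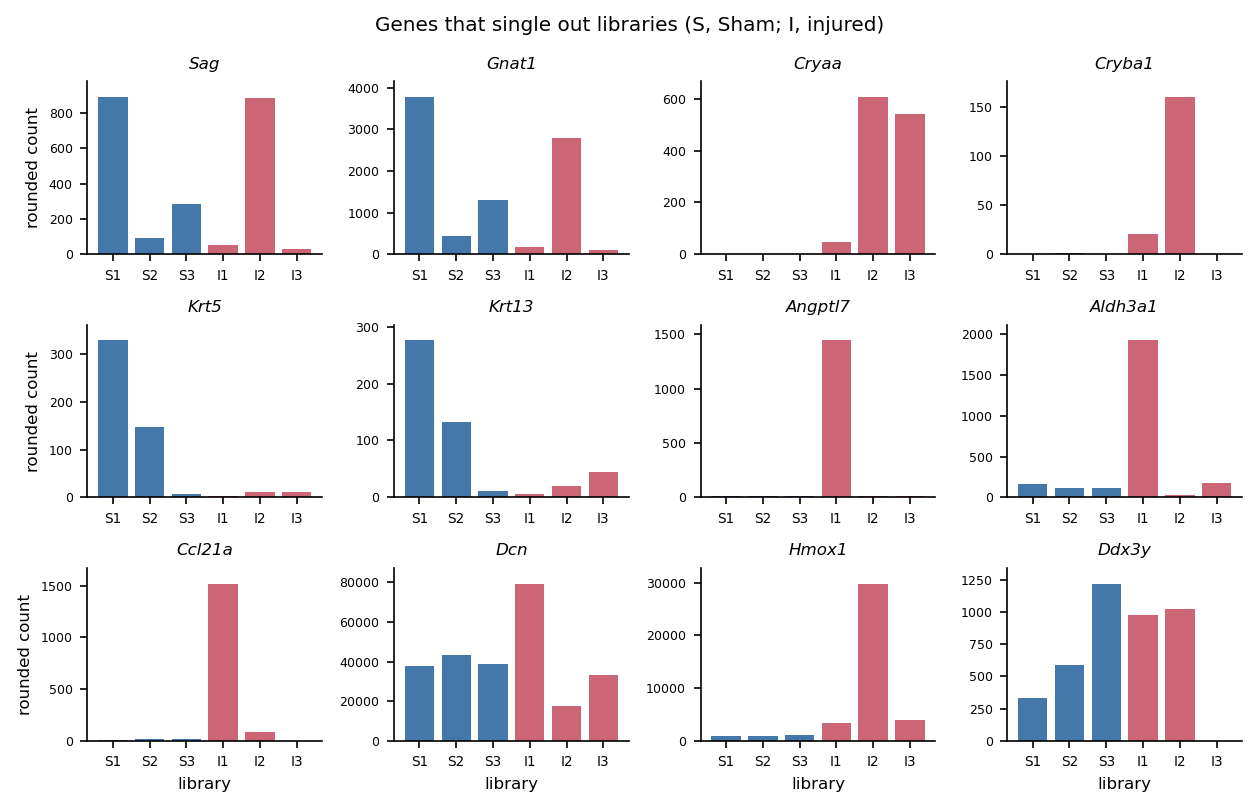
Rounded counts (y axis, linear from 0) of 12 genes in Sham libraries S1 to S3 (blue) and injured libraries I1 to I3 (red), 1 bar per library. The photoreceptor genes Sag and Gnat1 are high in S1 and I2, the keratins in S1 and S2, Angptl7, Aldh3a1 and Ccl21a in I1, and Ddx3y is at or near 0 in I3.

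After injury 2630 genes (17.5% of those tested) were lower and 3323 (22.1%) were higher. Counts of called list members below are to be read against these shares. The lists were chosen with earlier results of these data known, so such counts describe the lists and are no independent support. Groups did not overlap, in either direction, in 66.3% of all genes tested and in 2604 of the genes called lower. The genes called lower had a median log2 fold change of -1.20, and 1599 of them fell by more than 1 on the log2 scale, 496 by more than 2, 138 by more than 3 and 49 by more than 4. Scaling by library size alone gave 3523 lower and 2783 higher genes and moved the median of all genes from 0.01 to -0.16, so the higher genes made up 55.8% of all calls with TMM and 44.1% with library size alone. Smaller falls therefore depend on the scaling, and list medians below are to be read against that shift. In RNA of whole irises, fewer cells of a type and less RNA per cell cannot be told apart.

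Among genes with at least 5 CPM in Sham, the steepest falls were in muscle, one-carbon, nerve and channel genes. Mybpc1 (NCBI Gene ID 109272, chr10:88518279-88605229 on GRCm38), which encodes the slow-type myosin binding protein C, had 739, 875 and 748 counts in Sham and 0, 2 and 0 counts in injured libraries, a fall of 1125-fold (exact 95% interval of counting error 311 to 9295). Ckm, the muscle creatine kinase, had 233, 294 and 235 counts in Sham and 1, 0 and 2 counts in injured libraries, a fall of 242-fold (exact 95% interval of counting error 82.5 to 1176). Each injured library was thus at or near 0 for both genes. Dbpht2 had 93, 100 and 94 counts in Sham and 1, 2 and 0 counts in injured libraries and a fall of 91.1-fold (exact 95% interval of counting error 30.9 to 444). Next came Dmgdh, dimethylglycine dehydrogenase, with 30.5, 38.02 and 30.5 CPM in Sham and 0.850, 0.117 and 0.574 CPM in injured libraries (log2 fold change -5.99, SE 0.48, edgeR adjusted p = 7.72e-06). The carbonic anhydrase gene Car3 had 114, 52.2 and 61.2 CPM in Sham and 0.910, 2.17 and 0.574 CPM in injured libraries (log2 fold change -5.95, SE 0.50, edgeR adjusted p = 1.05e-05), and its Sham replicate 1 was the highest of that group. Kcnq3, a subunit of M-type potassium channels, measured 29.1, 30.9 and 26.3 CPM in Sham and 0.789, 0.644 and 0.230 CPM in injured libraries (log2 fold change -5.69, SE 0.33, edgeR adjusted p = 1.10e-06). Groups that did not overlap were a condition for naming these genes. Leaving out 1 injured library moved the log2 fold changes to -12.59 for Mybpc1, -7.19 for Dbpht2 and -6.67 for Car3 without replicate 2 and to -8.59 for Ckm without replicate 3, and each stayed called.

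Other genes of steepest fall were Bhmt2 (-5.94 on the log2 scale), Cyp2e1 (-5.66), Rab3c (-5.52), Tacr3 (-4.98), Bhmt (-4.84), Rit2 (-4.65), Gm2240 (-4.59) and Lypd1 (-4.58), each called lower. Cyp2e1 encodes a cytochrome P450 and Tacr3 the neurokinin 3 receptor. Tacr3 had 134, 149.7 and 128 CPM in Sham and 2.55, 6.21 and 4.25 CPM in injured libraries, and its injured libraries stayed below 1 in 10 of every Sham library. Without injured replicate 2 the log2 fold change of Rab3c was -7.30 and that of Rit2 -6.38, and without injured replicate 3 that of Bhmt was -4.25.

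Measured by the loss of CPM, which favors long and abundant transcripts, pigment and contractile genes led together with Ptgds. Ptgds, the lipocalin-type prostaglandin D synthase, dropped from 13097, 15156 and 13725 CPM in Sham to 2898, 3384 and 4306 CPM in injured libraries (log2 fold change -1.99, SE 0.18, edgeR adjusted p = 1.92e-05). Ptgds is also on the list of corneal stroma and endothelium markers, and the part of neighbouring tissue in its fall was not tested. Mgll, the monoacylglycerol lipase, had 5007, 5974 and 5559 CPM in Sham and 1007, 1056 and 1132 CPM in injured libraries (log2 fold change -2.37, SE 0.19, edgeR adjusted p = 7.72e-06). The amyloid precursor gene App had 3484, 3167 and 3428 CPM in Sham and 1341, 1509 and 1700.0 CPM in injured libraries (log2 fold change -1.15, SE 0.12, edgeR adjusted p = 3.48e-05), and its relative Aplp2 had 2021, 1982 and 2028 CPM in Sham and 1029, 839.6 and 1019.7 CPM in injured libraries (log2 fold change -1.06, SE 0.12, edgeR adjusted p = 8.02e-05). Each of these 4 genes was lower in all 3 injured libraries than in any Sham library. Other genes among the 15 largest losses, Dct, Pmel, Tyrp1, Trpm1, Myh11, Acta2, Mylk, Dkk3, Slc2a1 and Glul, are described with their groups. Genes called lower held 29.2% to 29.6% of all counts in Sham and 9.31% to 11.02% in injured libraries, a drop that follows in part from how they were chosen.

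**Figure D2:**
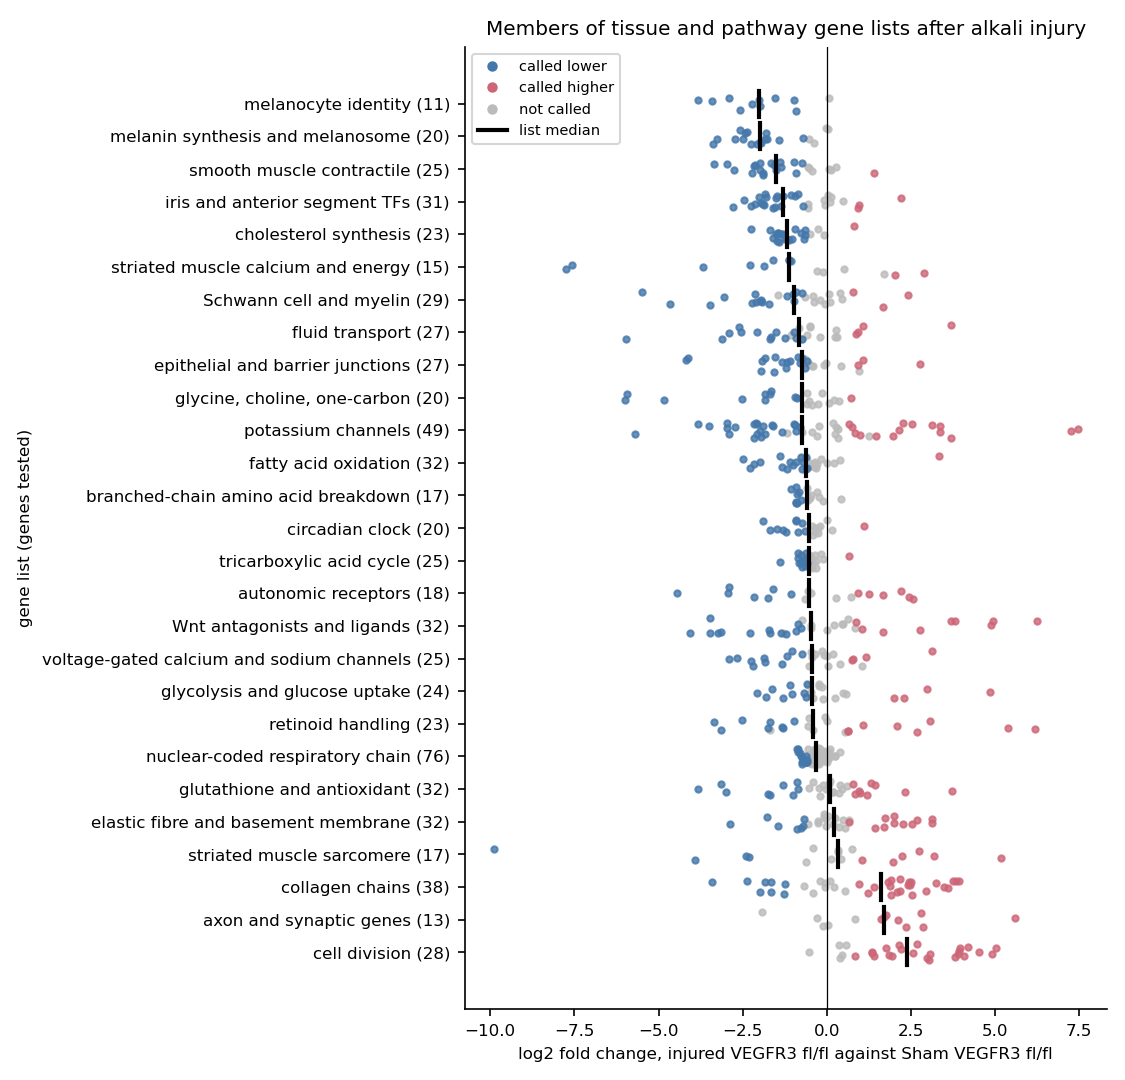
Log2 fold change of injured against Sham VEGFR3 fl/fl irises (x axis) for each tested member of 27 gene lists (y axis, genes tested in brackets); points are genes, blue called lower, red called higher, gray not called, and black bars list medians. Melanocyte, melanin and smooth muscle lists lie farthest to the left, at medians of -2.02, -1.97 and -1.50, and cell division farthest to the right, at 2.39.

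Pigmentation genes fell. Of the list for melanin synthesis and the melanosome, 16 of 20 genes tested were lower and 0 higher by edgeR and by DESeq2's Wald test (0 higher at an unadjusted p under 0.05), with a median log2 fold change of -1.97 (all genes 0.01). Their summed level went from 35490.0 ± 1344 CPM in Sham to 6678 ± 1644 CPM in injured libraries (SD, n = 3 each), 18.8% of the Sham mean. Pmel, which forms the fibrils on which melanin is laid down, had 8577, 9222 and 8121 CPM in Sham and 599, 875 and 994 CPM in injured libraries (log2 fold change -3.39, SE 0.30, edgeR adjusted p = 1.32e-05). The melanin enzyme gene Tyrp1 (chr4:80834123-80851736) had 6377, 6672 and 6713 CPM in Sham and 738, 1395 and 1518 CPM in injured libraries (log2 fold change -2.44, SE 0.24, edgeR adjusted p = 2.93e-05), and Dct, the dopachrome tautomerase, had 10421, 11134 and 10932 CPM in Sham and 1622, 2549 and 2618 CPM in injured libraries (log2 fold change -2.26, SE 0.21, edgeR adjusted p = 1.78e-05). Injured replicate 1 was the lowest of its group for all 3 genes, and the groups were far apart in each.

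Tyr, the tyrosinase that starts the pathway, fell less steeply, from 917, 905 and 916 CPM to 211, 261 and 323 CPM (log2 fold change -1.78, SE 0.14, edgeR adjusted p = 6.99e-06). The melanosomal transporter genes Slc45a2, Slc24a5 and Oca2 fell by 9.54-fold, 6.63-fold and 5.94-fold, the cation channel gene Trpm1 by 5.65-fold and Mlana by 4.22-fold. Some members did not pass. Myo5a, the motor that carries melanosomes, had a log2 fold change of -0.39 (edgeR adjusted p = 0.00126), under the 1.5-fold threshold, and the copper transporter gene Atp7a one of 0.02 (edgeR adjusted p = 0.893). Mreg was at -0.01 (edgeR adjusted p = 0.958).

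The core of the M-box, CATGTG on either strand (CACATG on the other), is the sequence that MITF is known to bind in pigment genes. It was present within 250 bases before a RefSeq transcript start in 7 of the 10 called members with a promoter in the RefSeq table, against 12.3% of all 32851 promoters and 9.44% of the tested genes in that table. The following 80-base stretches before the start of 4 of these genes (RefSeq, GRCm38.p6, 5′ to 3′ on the strand of the gene) are shown because these genes fell together, and capitals mark the motif. A match in these letters is a description and not a bound site.
Slc24a5 (chr2:125068047-125068126, + strand): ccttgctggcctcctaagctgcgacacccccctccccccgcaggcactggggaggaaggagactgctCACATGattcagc
Trpm1 (chr7:64153657-64153736, + strand): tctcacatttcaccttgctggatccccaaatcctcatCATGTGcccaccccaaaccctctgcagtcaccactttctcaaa
Tyr (chr7:87493513-87493592, - strand): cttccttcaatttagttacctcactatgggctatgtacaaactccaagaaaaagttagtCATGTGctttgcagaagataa
Dct (chr14:118052354-118052433, - strand): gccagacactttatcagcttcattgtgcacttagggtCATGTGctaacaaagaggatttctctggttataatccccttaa
The motif began 13 bases before the start in Slc24a5, 21 in Tyr, 141 in Trpm1 and 150 in Dct, and Dct held another at 232.

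Transcription factors and receptors of melanocytes fell with the pigment genes. Of this list 10 of 11 genes tested were lower and 0 higher by both tools (0 at an unadjusted p under 0.05), at a median of -2.02. Mitf had 137, 142 and 147 CPM in Sham and 42.5, 56.3 and 47.9 CPM in injured libraries (log2 fold change -1.54, SE 0.10, edgeR adjusted p = 2.92e-06), and Sox10, needed for melanocytes and Schwann cells alike, had 77.7, 90.4 and 73.2 CPM in Sham and 12.3, 19.6 and 19.4 CPM in injured libraries (log2 fold change -2.23, SE 0.21, edgeR adjusted p = 1.97e-05). Pax3, which acts upstream of Mitf, had 18.8, 23.05 and 22.4 CPM in Sham and 0.789, 3.10 and 2.12 CPM in injured libraries (log2 fold change -3.41, SE 0.45, edgeR adjusted p = 0.000177). For Ednrb, the endothelin receptor of the melanocyte lineage, 441, 485 and 418 CPM in Sham and 30.9, 99.6 and 47.9 CPM in injured libraries were measured (log2 fold change -2.91, SE 0.42, edgeR adjusted p = 0.000298), and the log2 fold change was -3.50 without injured replicate 2. Kcnj13, a potassium channel gene of pigmented epithelia, had 264, 309.5 and 282 CPM in Sham and 16.9, 23.7 and 19.4 CPM in injured libraries (log2 fold change -3.84, SE 0.15, edgeR adjusted p = 1.70e-07). Kit, the receptor for stem cell factor, was the exception, with 52.6, 52.02 and 46.8 CPM in Sham and 29.9, 66.1 and 60.9 CPM in injured libraries and overlapping groups (log2 fold change 0.05, SE 0.24, edgeR adjusted p = 0.866). Mast cells also express Kit. The split between stromal melanocytes and pigmented epithelium was not measured here.

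Optic cup genes fell in part. Of the transcription factors and signals of the iris epithelium and anterior segment, 20 of 31 genes tested were lower, 3 were higher and 8 did not pass, with a median of -1.29. Pax6 (chr2:105668896-105698410) had 737, 749.7 and 778 CPM in Sham and 194, 221 and 224 CPM in injured libraries (log2 fold change -1.82, SE 0.10, edgeR adjusted p = 7.08e-07). Otx2, a driver of pigmented epithelium, had 222, 189 and 259.6 CPM in Sham and 50.6, 37.5 and 52.9 CPM in injured libraries (log2 fold change -2.25, SE 0.20, edgeR adjusted p = 1.62e-05), and Eya1 had 113, 117 and 105 CPM in Sham and 14.4, 22.2 and 23.8 CPM in injured libraries (log2 fold change -2.47, SE 0.17, edgeR adjusted p = 2.85e-06). Groups were far apart in each. Tbx5, which patterns the dorsal eye, had 17.4, 13.5 and 16.7 CPM in Sham and 0.971, 2.63 and 3.22 CPM in injured libraries (log2 fold change -2.80, SE 0.35, edgeR adjusted p = 0.000133). Six3, Bmp7 and Tfap2a fell by 3.05-fold, 4.40-fold and 4.05-fold.

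Genes of the periocular mesenchyme, the source of the stroma, stood apart from these. Foxc1 had 75.5, 76.7 and 73.7 CPM in Sham and 78.2, 62.8 and 76.9 CPM in injured libraries (log2 fold change -0.05, SE 0.09, edgeR adjusted p = 0.658) and Lmx1b 52.4, 55.1 and 51.2 CPM in Sham and 67.4, 42.8 and 60.2 CPM in injured libraries (log2 fold change 0.10, SE 0.20, edgeR adjusted p = 0.675), both with overlapping groups. Foxc2, in contrast, rose from 2.88, 2.49 and 3.27 CPM to 17.7, 10.6 and 11.5 CPM (log2 fold change 2.199, SE 0.27, edgeR adjusted p = 0.000101). Maf, a transcription factor of lens and other tissues, rose 1.89-fold.

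**Figure D3:**
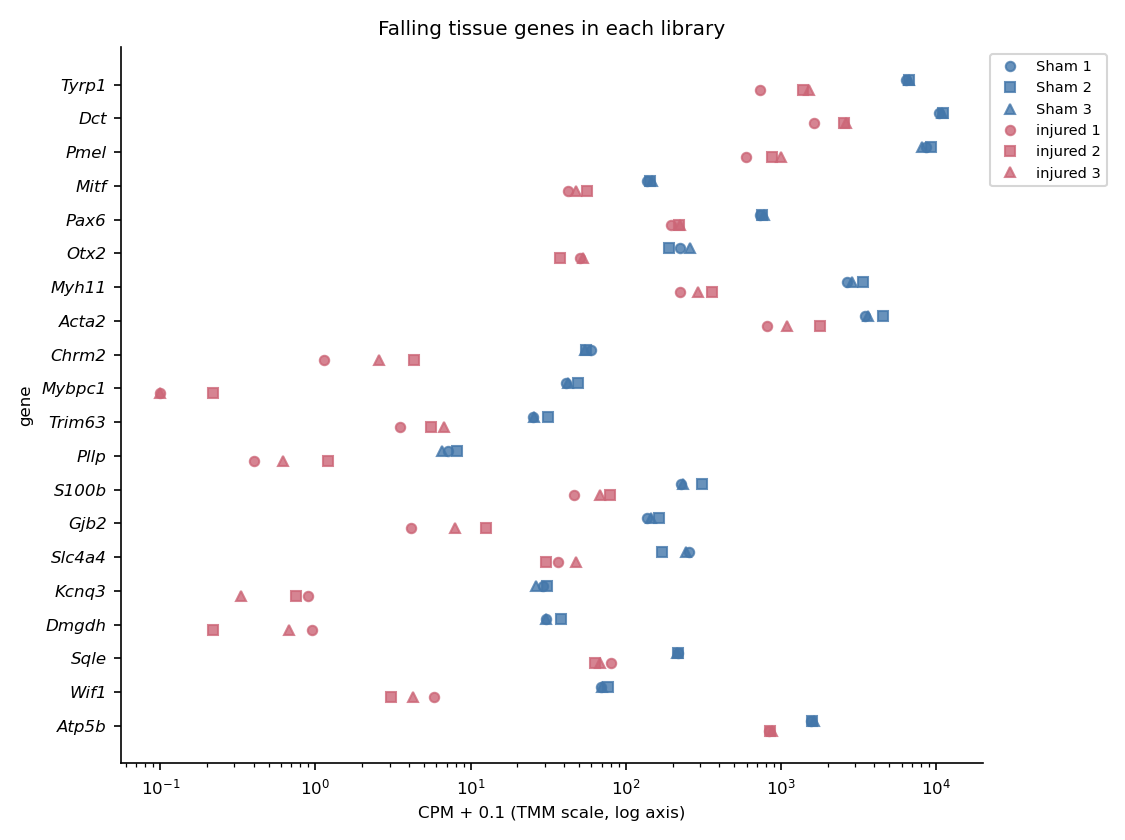
CPM + 0.1 on the TMM scale (x axis, logarithmic) of 20 genes (y axis) in Sham (blue) and injured (red) VEGFR3 fl/fl libraries, 1 point per library and 1 symbol per replicate number, which pairs no libraries. Each gene has its 3 injured points to the left of its 3 Sham points, from Mybpc1, with 0 counts in 2 injured libraries, to Atp5b with a log2 fold change of -0.90.

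The contractile apparatus of smooth muscle was lower. Of its genes, 18 of 25 genes tested were lower, 1 was higher and 6 did not pass, at a median of -1.50. Myh11 (chr16:14194527-14292188), the smooth muscle myosin heavy chain, had 2665, 3384 and 2863 CPM in Sham and 224, 361 and 294 CPM in injured libraries (log2 fold change -3.34, SE 0.20, edgeR adjusted p = 1.58e-06). Acta2, smooth muscle actin, had 3486, 4573 and 3634 CPM in Sham and 819, 1791 and 1099 CPM in injured libraries (log2 fold change -1.66, SE 0.29, edgeR adjusted p = 0.000945). Cnn1, calponin, had 72.9, 102 and 83.96 CPM in Sham and 9.47, 19.2 and 9.36 CPM in injured libraries (log2 fold change -2.76, SE 0.38, edgeR adjusted p = 0.000219). Injured replicate 2 was the highest injured library for these 3 genes, and still below the Sham range.

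The kinase and light chain of contraction fell as well, Mylk by 3.72-fold and Myl9 by 3.99-fold, and Synpo2, Pgm5, Mrvi1, Smtn and Lmod1 by 7.77-, 4.71-, 4.51-, 2.99- and 2.56-fold. Myocd, the coactivator of the smooth muscle genes, had 6.43, 7.74 and 7.66 CPM in Sham and 1.46, 1.05 and 2.41 CPM in injured libraries (log2 fold change -2.14, SE 0.30, edgeR adjusted p = 0.000267). The fall of Tagln was smaller (log2 fold change -0.98, SE 0.30, edgeR adjusted p = 0.0189) and was not called without Sham replicate 2 or injured replicate 3. Des, the intermediate filament of muscle, had 113, 144 and 118 CPM in Sham and 59.3, 142 and 75.6 CPM in injured libraries (log2 fold change -0.44, SE 0.28, edgeR adjusted p = 0.203), and was called lower without injured replicate 2. Actg2, Cald1 and Prkg1 had log2 fold changes of 0.07, 0.29 and 0.12 (edgeR adjusted p = 0.906, 0.0511 and 0.617). Pericytes and vessel walls carry many of these genes too. Their markers Pdgfrb and Abcc9 rose, by 3.32-fold and 3.30-fold, and Rgs5 by 1.81-fold. The parts of iris muscle, pericytes and vessel walls in the falls were not tested.

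A CArG box, which serum response factor is known to bind, searched on both strands, lay within 250 bases before a transcript start in 1 of 13 called smooth muscle genes with a promoter in the table, against 1.47% of all promoters and 1.38% of the tested genes in that table. It was in Myl9, 161 bases before a transcript start in the table that is not the first base of the gene, chr2:156775408. Its surroundings are shown with the box in capitals.
Myl9 (chr2:156775268-156775347, + strand): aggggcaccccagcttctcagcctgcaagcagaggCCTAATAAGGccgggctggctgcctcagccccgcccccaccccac

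Receptors for nerve transmitters and other signals in the iris moved in both directions. Of 18 receptor genes tested, 7 were lower and 6 higher, with a median of -0.52. As shares these were 38.9% and 33.3%, against 17.5% and 22.1% of all genes tested. Ednrb, described with the melanocyte genes, made up 56.3% of the summed level of this list in Sham. Chrm2 (chr6:36387991-36528638), the M2 muscarinic receptor, had 59.4, 55.4 and 54.2 CPM in Sham and 1.03, 4.21 and 2.47 CPM in injured libraries (log2 fold change -4.44, SE 0.40, edgeR adjusted p = 1.62e-05). Chrm4, the M4 receptor, had 71.8, 81.9 and 68.1 CPM in Sham and 5.64, 12.8 and 10.4 CPM in injured libraries (log2 fold change -2.94, SE 0.26, edgeR adjusted p = 1.52e-05). Chrm3, the receptor that drives the sphincter, had low levels of 3.99, 5.76 and 6.31 CPM in Sham and 2.003, 2.69 and 2.93 CPM in injured libraries (log2 fold change -1.07, SE 0.33, edgeR adjusted p = 0.0186), and its call was lost without Sham replicate 2, Sham replicate 3 or injured replicate 1, with adjusted p up to 0.0673 by edgeR over its alternatives. The alpha-1A adrenergic receptor gene Adra1a, of the dilator, fell by 3.37-fold and Adrb1 by 4.51-fold. Adra2a moved the other way, from 11.96, 8.76 and 9.80 CPM to 52.8, 41.3 and 70.9 CPM (log2 fold change 2.43, SE 0.23, edgeR adjusted p = 2.00e-05). Ptger2 and P2rx1 also rose, by 4.65-fold and 5.89-fold, and P2rx1 by 1.90 on the log2 scale without injured replicate 2.

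Striated muscle genes did not move as one. Of the sarcomere list, 30 genes were in the files and 17 had enough counts for a test. Of these 17, 4 were lower and 6 higher (23.5% and 35.3%, against 17.5% and 22.1% of all genes tested). The median of 0.33 goes against the summed level, 39.2% of the Sham mean. Mybpc1 alone held 39.8% of that sum in Sham. Ttn, titin, had 9.03, 9.49 and 7.77 CPM in Sham and 0.485, 0.644 and 0.574 CPM in injured libraries (log2 fold change -3.93, SE 0.25, edgeR adjusted p = 2.18e-06). Trim63, the muscle ubiquitin ligase MuRF1, had 25.3, 31.2 and 25.3 CPM in Sham and 3.40, 5.44 and 6.66 CPM in injured libraries (log2 fold change -2.40, SE 0.22, edgeR adjusted p = 2.06e-05) and Ldb3, a Z-disc gene, 12.1, 14.01 and 12.2 CPM in Sham and 3.22, 2.63 and 1.78 CPM in injured libraries (log2 fold change -2.33, SE 0.22, edgeR adjusted p = 2.04e-05). Defining genes of skeletal fibers were nearly absent from Sham irises, with 0 counts of Myh1 in all 3 libraries and 3, 7 and 4 of Acta1.

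Troponin genes Tnni1 and Tnni2 rose from almost nothing. Tnni2 had 3, 4 and 5 counts in Sham and 44, 34 and 28 counts in injured libraries (log2 fold change 3.18, SE 0.37, edgeR adjusted p = 7.33e-05) and Tnni1 0, 1 and 1 counts in Sham and 13, 37 and 32 counts in injured libraries. Myh2 had 8, 1 and 4 counts in Sham and 55, 23 and 6 counts in injured libraries with overlapping groups, and its call (edgeR adjusted p = 0.0459) was lost in 8 alternatives, among them each single Sham library and injured replicates 1 and 2 left out, with adjusted p up to 0.178 over its alternatives.

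Energy and calcium genes of striated muscle were lower in 9 of 15 genes tested and higher in 2, at a median of -1.12. Pygm, muscle glycogen phosphorylase, had 238, 215 and 229 CPM in Sham and 64.1, 53.3 and 69.5 CPM in injured libraries (log2 fold change -1.87, SE 0.20, edgeR adjusted p = 4.70e-05) and made up 55.6% of the summed level in Sham. The sarcoglycan gene Sgca had 4.15, 6.61 and 4.73 CPM in Sham and 0.728, 0.351 and 0.115 CPM in injured libraries (log2 fold change -3.68, SE 0.49, edgeR adjusted p = 0.000187), with -4.43 without injured replicate 1, and Casq2, calsequestrin, fell by 4.82-fold. Myf6, a myogenic factor, had 19, 28 and 25 counts in Sham and 0, 0 and 0 counts in injured libraries, at least 7.63-fold lower when 3 counts per library are taken as the floor. Casq1 and Eno3 had overlapping groups, at -0.29 and -0.12 (edgeR adjusted p = 0.438 and 0.312).

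The letters CAGCTG, an E-box of the kind that myogenic factors bind, were within 250 bases before a transcript start in 2 of 4 called sarcomere genes and in 3 of 6 called energy and calcium genes with a promoter in the table. They were in 13.0% of all promoters and in 14.7% of the tested genes in that table. These letters read the same on both strands. Stretches from 3 of these genes are shown because the genes were called lower, with the motif in capitals.
Trim63 (chr4:134315011-134315090, + strand): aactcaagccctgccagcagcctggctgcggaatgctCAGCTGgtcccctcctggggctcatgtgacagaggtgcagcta
Ckm (chr7:19410844-19410923, + strand): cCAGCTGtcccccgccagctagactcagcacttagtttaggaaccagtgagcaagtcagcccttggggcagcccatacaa
Pygm (chr19:6384203-6384282, + strand): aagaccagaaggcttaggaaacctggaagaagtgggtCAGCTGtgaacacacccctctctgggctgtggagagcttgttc

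**Figure D4:**
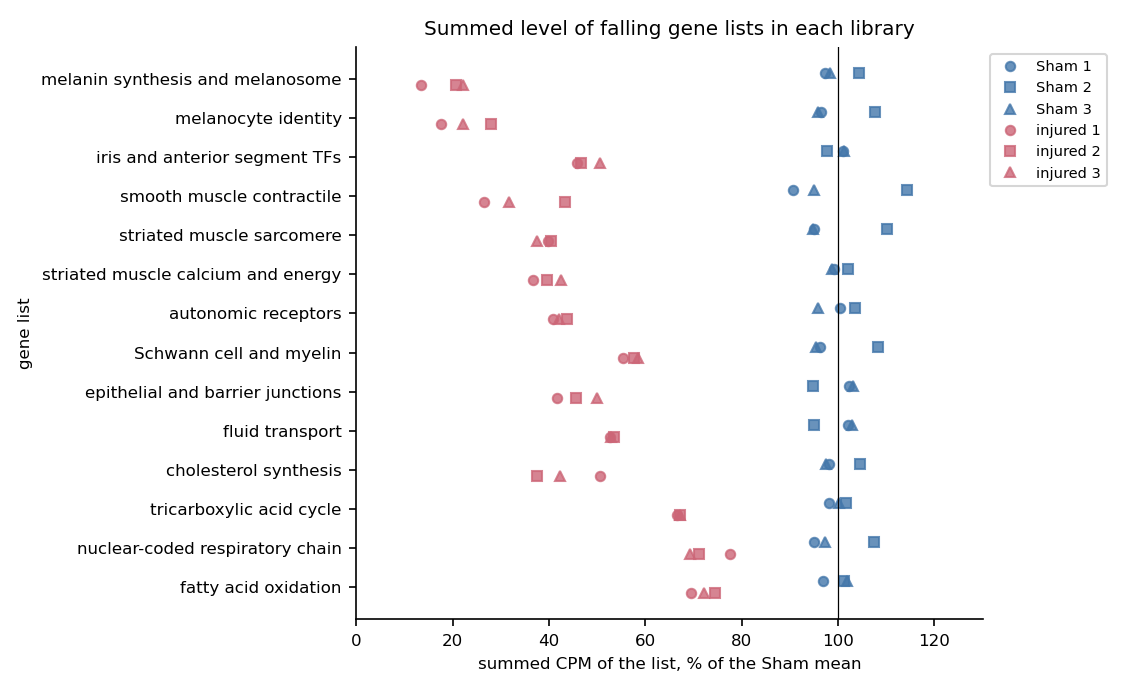
Summed CPM of each list as percent of its Sham mean (x axis) in Sham (blue) and injured (red) libraries, 1 point per library, for 14 lists (y axis). In the list labelled autonomic receptors, Ednrb made up 56.3% of the Sham sum. The injured points of each list shown lie below its Sham points, lowest for melanin at a mean of 18.8% and highest for the respiratory chain at 72.7%; with 3 against 3 libraries the smallest exact permutation p is 0.1, which each list reached.

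Summed levels did not overlap between the groups in 33 of the 37 lists with a sum, and in each of these the two-sided exact permutation test gave p = 0.1, the smallest that 3 against 3 libraries allow. The exceptions were lymphatic endothelium, lens, corneal epithelium and Y-linked genes.

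Schwann cell genes fell in part. Of the Schwann and myelin list, 16 of 29 genes tested were lower, 3 higher and 10 did not pass (median -0.98). Pllp, plasmolipin, a membrane protein of myelin, had 7.09, 8.08 and 6.48 CPM in Sham and 0.303, 1.11 and 0.517 CPM in injured libraries (log2 fold change -3.47, SE 0.46, edgeR adjusted p = 0.000174), and its log2 fold change was -4.11 without injured replicate 2. The glial calcium-binding gene S100b had 227, 312 and 234 CPM in Sham and 46.4, 78.7 and 68.1 CPM in injured libraries (log2 fold change -1.999, SE 0.23, edgeR adjusted p = 6.89e-05). In both, each injured library was below the Sham range. Sox10 and S100b are shared with melanocytes.

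Losses of Fa2h and Cdh19 were 8.33-fold and 3.29-fold. Pmp22, another myelin gene, had overlapping groups, with 281, 309 and 285 CPM in Sham and 295, 273 and 276 CPM in injured libraries (log2 fold change -0.05, SE 0.08, edgeR adjusted p = 0.567). Mbp had a log2 fold change of -0.41 (edgeR adjusted p = 0.0096), under the 1.5-fold threshold. Egr2, a regulator of myelination that macrophages also express, rose from 1.77, 1.53 and 3.21 CPM to 10.9, 11.4 and 12.6 CPM (log2 fold change 2.42, SE 0.25, edgeR adjusted p = 4.07e-05), and Mag and Scn7a rose 3.17-fold and 1.71-fold.

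Of 13 axonal and synaptic genes tested, 8 were higher and 0 lower by edgeR and by DESeq2 (0 lower at an unadjusted p under 0.05), with a median of 1.69. Without injured replicate 2, 1 was lower. Nefm, a neurofilament, had 2.16, 1.19 and 2.76 CPM in Sham and 96.3, 36.9 and 166 CPM in injured libraries (log2 fold change 5.61, SE 0.87, edgeR adjusted p = 0.000452), and Prph, peripherin, 2.10, 2.71 and 1.80 CPM in Sham and 14.1, 17.6 and 14.3 CPM in injured libraries (log2 fold change 2.79, SE 0.20, edgeR adjusted p = 4.04e-06). Tubb3 rose 4.35-fold and Stmn2 5.13-fold, the latter by 1.58 on the log2 scale without injured replicate 2. Snap25 followed Gnat1 across the libraries, with 230, 21 and 67 counts in Sham and 19, 287 and 4 counts in injured libraries, and did not pass (log2 fold change 0.04, SE 1.28, edgeR adjusted p = 0.982). Nefl passed by a narrow margin (edgeR adjusted p = 0.049) and lost its call in 10 alternatives. Cell bodies of these nerves lie outside the iris, and Th, Chat and Dbh had 1 count or less in every Sham library.

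Gap junction genes were among the steepest falls of the epithelial list, in which 16 of 27 genes tested were lower and 3 higher (median -0.74). Gjb2 and Gjb6, connexins 26 and 30, moved side by side. Gjb2 had 136, 164 and 146 CPM in Sham and 4.01, 12.4 and 7.87 CPM in injured libraries (log2 fold change -4.19, SE 0.39, edgeR adjusted p = 2.09e-05) and Gjb6 90.4, 110.4 and 87.6 CPM in Sham and 2.49, 9.37 and 4.59 CPM in injured libraries (log2 fold change -4.13, SE 0.40, edgeR adjusted p = 2.56e-05). In both, injured replicate 1 was the lowest and replicate 2 the highest of the injured libraries, and without the latter the log2 fold change of Gjb6 was -4.75. Gja1, connexin 43, fell by 2.97-fold and made up 41.1% of the summed level in Sham. The tight junction genes Cldn19 and Ocln, E-cadherin (Cdh1) and the polarity gene Pard6b fell by 3.85-, 2.33-, 3.55- and 3.80-fold. Cdh2, N-cadherin, had 75, 60.7 and 74.6 CPM in Sham and 78.3, 66.03 and 63.6 CPM in injured libraries (log2 fold change -0.02, SE 0.12, edgeR adjusted p = 0.918). Cldn11 rose from 4.04, 2.54 and 4.62 CPM to 12.4, 41.2 and 23.6 CPM (log2 fold change 2.78, SE 0.45, edgeR adjusted p = 0.000568), and F11r and Marveld2 rose too, by 1.92-fold and 2.12-fold.

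Ion pumps and transporters of fluid secretion were lower in 13 of 27 genes tested and higher in 4 (median -0.82). The bicarbonate transporter genes Slc4a4 and Slc4a5 had 254, 172 and 244 CPM in Sham and 36.7, 30.6 and 47.5 CPM in injured libraries (log2 fold change -2.54, SE 0.28, edgeR adjusted p = 5.15e-05) and 912, 737 and 890.3 CPM in Sham and 196, 175 and 228 CPM in injured libraries (log2 fold change -2.08, SE 0.19, edgeR adjusted p = 1.70e-05). Both were highest in Sham replicates 1 and 3. Car8, Car14 and Cftr fell by 8.69-, 3.25- and 7.44-fold. Aqp1, a water channel of endothelium and epithelium, rose from 521, 558 and 499 CPM to 945, 1081 and 979.5 CPM (log2 fold change 0.93, SE 0.12, edgeR adjusted p = 0.000161). Calls of Car2, Car9 and Aqp5 were lost when single libraries were left out, with adjusted p up to 0.0981, 0.104 and 0.0775 by edgeR over their alternatives.

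Ciliary body genes bear on this list. Of 9 markers, 4 were lower and 0 higher by edgeR and DESeq2 (0 at an unadjusted p under 0.05), and the summed level was 38.4% of the Sham mean, with 74.8% of the Sham sum from Slc4a5, which both lists hold. Atp6v1c2 was low and uneven, with 6, 25 and 10 counts in Sham and 27, 3 and 3 counts in injured libraries, and was called lower only without injured replicate 1 (log2 fold change -2.10, or -0.22 with all libraries). Cacna1e was low in both groups, with 31, 19 and 22 counts in Sham and 33, 22 and 22 counts in injured libraries. Wfdc1 fell by 2.79-fold, or by 2.08 on the log2 scale without injured replicate 1. The part of ciliary tissue in these results was not tested.

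Potassium channels split, with 23 of 49 genes tested lower and 15 higher (median -0.73). As shares these were 46.9% and 30.6%, against 17.5% and 22.1% of all genes tested. Kcnq3 (chr15:65986374-66286636) is described above. Kcnj3, a G protein-gated channel of the kind that muscarinic receptors open, had 27.03, 26.9 and 25.6 CPM in Sham and 1.52, 5.03 and 3.62 CPM in injured libraries (log2 fold change -2.96, SE 0.33, edgeR adjusted p = 5.74e-05), and the delayed rectifier gene Kcnb2 7.64, 8.30 and 7.55 CPM in Sham and 0.789, 1.29 and 0.919 CPM in injured libraries (log2 fold change -2.96, SE 0.29, edgeR adjusted p = 2.65e-05). On the rising side, Kcnj15 went from 0.498, 0.339 and 0.619 CPM to 98.98, 46.5 and 115 CPM (log2 fold change 7.46, SE 0.46, edgeR adjusted p = 1.66e-06), and Kcns1 had 0, 0 and 1 counts in Sham and 82, 42 and 78 counts in injured libraries. Kcna5 rose 12.9-fold and Kcnma1, the BK channel, 2.75-fold.

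Among voltage-gated calcium and sodium channels 10 of 25 were lower and 4 higher (median -0.44). Scn8a had 62.5, 67.8 and 58.8 CPM in Sham and 4.07, 14.1 and 7.24 CPM in injured libraries (log2 fold change -2.89, SE 0.38, edgeR adjusted p = 0.000161), and Scn2b, Cacna2d2 and Cacnb2 fell by 6.35-, 4.80- and 4.55-fold. Cacna1c, the L-type channel of smooth muscle, rose 1.67-fold, a call lost under scaling by library size alone.

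Retinoid genes moved apart, with 8 of 23 genes tested lower and 8 higher (median -0.40). This was 34.8% in each direction, against 17.5% lower and 22.1% higher of all genes tested. Rdh5, retinol dehydrogenase, had 158, 163 and 172 CPM in Sham and 57.4, 40.2 and 49.2 CPM in injured libraries (log2 fold change -1.75, SE 0.19, edgeR adjusted p = 4.33e-05), and Rlbp1, the retinaldehyde binding protein, 187, 196 and 207 CPM in Sham and 83.4, 70.2 and 82.6 CPM in injured libraries (log2 fold change -1.32, SE 0.12, edgeR adjusted p = 1.45e-05). Rgr and Lrat fell more steeply, but injured replicate 1 kept more of each, 18.9, 2.87 and 2.30 CPM of Rgr and 4.13, 0.761 and 1.38 CPM of Lrat in injured replicates 1 to 3 against 70.1, 93.9 and 78.5 and 10.9, 11.6 and 13.6 CPM in Sham. Without that library their log2 fold changes were -4.97 and -3.48, in place of -3.34 and -2.53. Ttr behaved likewise, with 129, 162 and 162 CPM in Sham and 114, 10.01 and 18.1 CPM in injured libraries, and was called lower only without injured replicate 1 among the alternatives run (log2 fold change -3.42, or -1.68 and edgeR adjusted p = 0.0841 with all libraries). The visual cycle isomerase gene Rpe65 (log2 fold change -3.14, edgeR adjusted p = 0.0228) lost its call without Sham replicate 2 or injured replicate 2 or 3.

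Crabp2, which carries retinoic acid to the nucleus, rose from 4.49, 7.23 and 4.67 CPM to 26.5, 64.2 and 47.7 CPM (log2 fold change 3.08, SE 0.36, edgeR adjusted p = 7.43e-05). Rarres1 had 0.498, 0.226 and 0.225 CPM in Sham and 14.8, 17.7 and 8.38 CPM in injured libraries (log2 fold change 5.39, SE 0.39, edgeR adjusted p = 4.14e-06), and Dhrs9 had 1, 0 and 0 counts in Sham and 18, 39 and 39 counts in injured libraries.

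Respiratory chain genes were called lower about as often as genes in general. Of 76 nuclear-coded subunits of the respiratory chain, 14 were lower and 0 higher by edgeR and by DESeq2 (46 lower and 1 higher at an unadjusted p under 0.05), or 18.4% lower against 17.5% of all genes tested, with a median of -0.31. The number of lower genes was 25 with scaling by library size alone and 8 without Sham replicate 2. Atp5b, the ATP synthase beta subunit, had 1553, 1593 and 1637 CPM in Sham and 840.0, 855 and 875 CPM in injured libraries (log2 fold change -0.90, SE 0.08, edgeR adjusted p = 2.19e-05) and Atp5a1 1037, 1091 and 1106 CPM in Sham and 581, 601 and 620.4 CPM in injured libraries (log2 fold change -0.84, SE 0.07, edgeR adjusted p = 1.41e-05). Ndufs1 and Sdha of complexes I and II fell by 1.72-fold and 1.67-fold. Cox5a had the highest log2 fold change of the list, 0.41 (edgeR adjusted p = 0.00309), under the 1.5-fold threshold. Genes of the mitochondrial genome were not analysed here.

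The citric acid cycle was lower in 12 of 25 genes tested (median -0.53) and higher in 1, Mpc1, the pyruvate carrier, whose call was lost with library size scaling and without injured replicate 1. Suclg2 had 179, 178 and 174 CPM in Sham and 71.4, 57.95 and 75.2 CPM in injured libraries (log2 fold change -1.38, SE 0.10, edgeR adjusted p = 4.75e-06). Fatty acid oxidation was lower in 16 of 32 genes tested and higher in 1 (median -0.61). Its coactivator gene Ppargc1a had 43.4, 39.3 and 45.95 CPM in Sham and 7.10, 9.19 and 12.2 CPM in injured libraries (log2 fold change -2.17, SE 0.17, edgeR adjusted p = 6.42e-06), and Fabp3, Ucp3 and Ppara fell by 5.61-, 4.82- and 3.92-fold. Cd36, a fatty acid transporter that macrophages and endothelium express, rose from 8.20, 9.89 and 9.91 CPM to 84.6, 145 and 51.3 CPM (log2 fold change 3.32, SE 0.36, edgeR adjusted p = 5.38e-05). Branched-chain amino acid breakdown was lower in 8 of 17 genes tested and higher in 0 by edgeR and DESeq2 (15 lower and 1 higher at an unadjusted p under 0.05), at a median of -0.58.

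Glycolysis and glucose uptake genes moved apart, with 9 of 24 genes tested lower and 4 higher (median -0.44). As shares these were 37.5% and 16.7%, against 17.5% and 22.1% of all genes tested. Slc2a1, the glucose transporter of barrier epithelia, had 1888, 1690.5 and 1739 CPM in Sham and 416, 544 and 556 CPM in injured libraries (log2 fold change -1.81, SE 0.16, edgeR adjusted p = 1.22e-05), and Slc2a4, the insulin-responsive transporter of muscle and fat, 29.4, 35.8 and 29.8 CPM in Sham and 4.01, 9.95 and 8.56 CPM in injured libraries (log2 fold change -2.07, SE 0.27, edgeR adjusted p = 0.000145). Ldhb and Aldoc fell by 3.11-fold and 2.44-fold. Hk2 and Hk3, hexokinases, rose, Hk3 from 2.27, 2.03 and 1.80 CPM to 72.1, 57.8 and 45.7 CPM (log2 fold change 4.84, SE 0.20, edgeR adjusted p = 1.99e-07) and Hk2 by 3.99-fold. Pfkfb3 and the lactate exporter gene Slc16a3 rose 4.91-fold and 7.89-fold. Gapdh and Pkm did not pass, at -0.10 and -0.15 (edgeR adjusted p = 0.405 and 0.251).

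Breakdown of glycine, choline and betaine held some of the steepest falls in the data. Of the list, 10 of 20 genes tested were lower and 1 was higher, at a median of -0.74. The list was chosen with earlier results of these data known. It holds Dmgdh, Bhmt and Bhmt2, named above for their falls, so its counts are a description only. The higher gene, Ahcy, lost its call under library size scaling. Bhmt encodes the enzyme that takes a methyl group from betaine, and the product dimethylglycine is oxidized by that of Dmgdh. Bhmt had 5.59, 11.1 and 9.29 CPM in Sham and 0.425, 0.468 and 0 CPM in injured libraries (log2 fold change -4.84, SE 1.15, edgeR adjusted p = 0.0054) and its relative Bhmt2 12.5, 18.1 and 14.2 CPM in Sham and 0.364, 0.0585 and 0.287 CPM in injured libraries (log2 fold change -5.94, SE 0.40, edgeR adjusted p = 2.68e-06). Next in the pathway, Sardh, for sarcosine, had a log2 fold change of -0.44 (edgeR adjusted p = 0.000568), under the 1.5-fold threshold. Cbs and Gldc, of transsulfuration and glycine cleavage, fell by 5.78-fold and 3.23-fold. Bhmt and Bhmt2 are related in sequence, and how reads shared between them were counted is not given in the sources used here.

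Cholesterol synthesis fell along the pathway, with 19 of 23 genes tested lower and 1 higher (median -1.17). Sqle, squalene epoxidase, had 216, 216 and 215 CPM in Sham and 80.6, 63.1 and 68.2 CPM in injured libraries (log2 fold change -1.61, SE 0.09, edgeR adjusted p = 9.19e-07), and Hmgcs1, at the start, 257, 282 and 271 CPM in Sham and 119, 77.9 and 105 CPM in injured libraries (log2 fold change -1.42, SE 0.14, edgeR adjusted p = 3.03e-05). The regulators Srebf2 and Insig1 fell by 2.47-fold and 2.78-fold. Ebp, an isomerase late in the pathway, rose (log2 fold change 0.81, SE 0.11, edgeR adjusted p = 0.000209). Injured replicate 2 was the lowest of its group for Sqle, Hmgcs1 and Insig1.

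**Figure D5:**
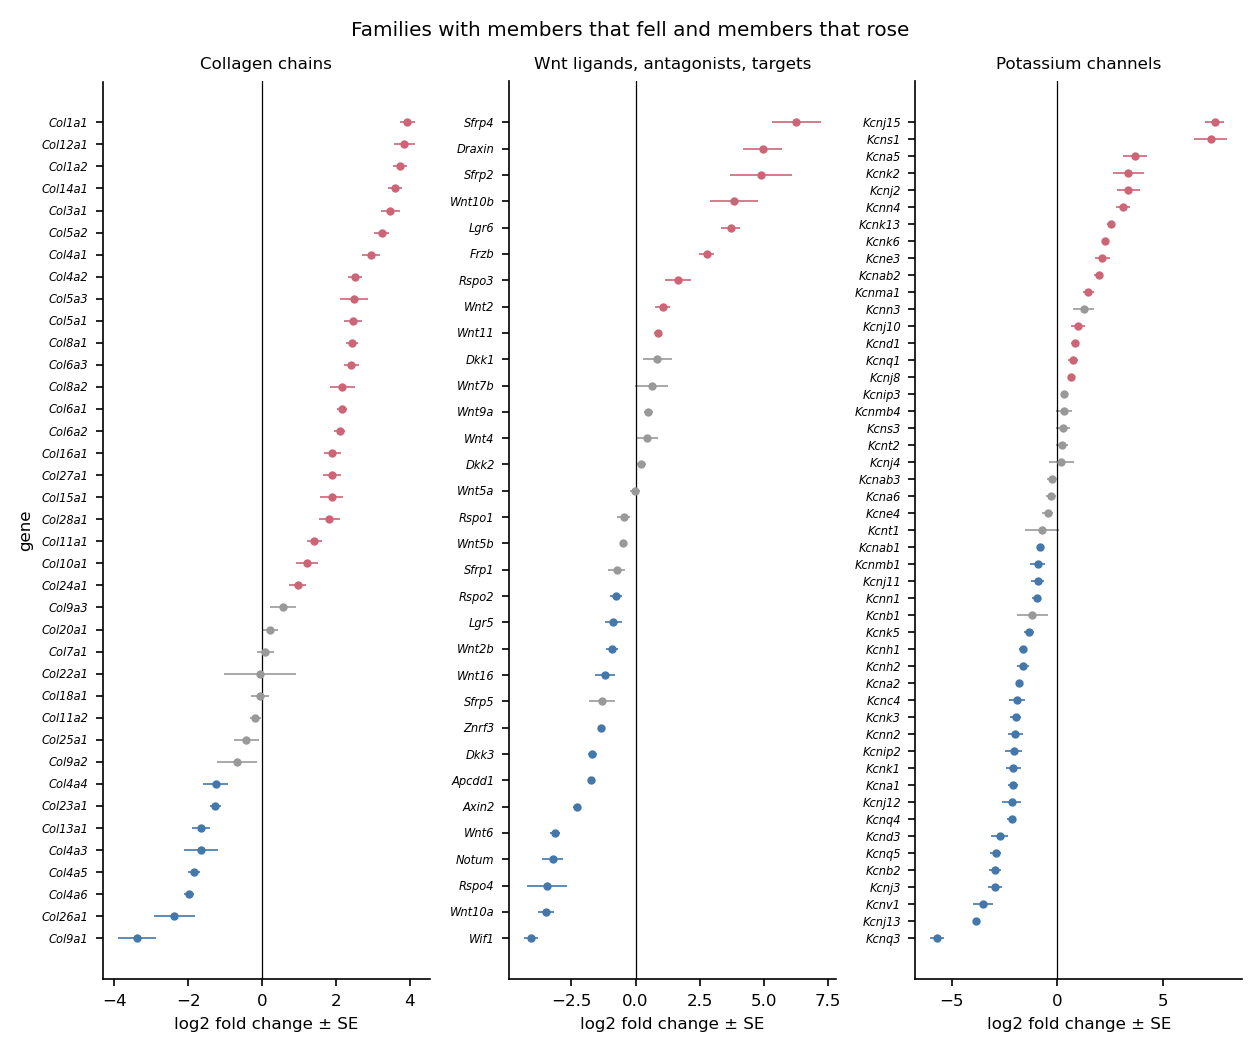
Log2 fold change ± SE from edgeR (x axis) of tested collagen chains, Wnt pathway genes and potassium channels (y axis), blue called lower, red called higher and gray not called. Each family has members on both sides, from Wif1 at -4.07 to Sfrp4 at 6.26 among Wnt genes and from Col9a1 at -3.40 to Col1a1 at 3.94 among collagens.

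Wnt pathway genes moved apart, 13 of 32 genes tested lower and 9 higher (median -0.47). As shares these were 40.6% and 28.1%, against 17.5% and 22.1% of all genes tested. Wif1, a secreted inhibitor, had 68.7, 77.2 and 70.2 CPM in Sham and 5.70, 2.99 and 4.13 CPM in injured libraries (log2 fold change -4.07, SE 0.26, edgeR adjusted p = 2.21e-06). The ligand genes Wnt10a and Wnt6 had 92.8, 126 and 84.98 CPM in Sham and 11.8, 6.56 and 9.02 CPM in injured libraries (log2 fold change -3.47, SE 0.31, edgeR adjusted p = 1.64e-05) and 38.8, 44.9 and 33.7 CPM in Sham and 4.86, 4.86 and 3.68 CPM in injured libraries (log2 fold change -3.13, SE 0.19, edgeR adjusted p = 1.53e-06). Axin2 and Notum, feedback targets of Wnt signaling, fell by 4.83-fold and 9.34-fold, and Notum by 3.85 on the log2 scale without injured replicate 1. Dkk3, which held 65.7% of the summed level in Sham, had 2594, 2409 and 2667 CPM in Sham and 630.2, 857 and 889 CPM in injured libraries (log2 fold change -1.69, SE 0.17, edgeR adjusted p = 3.51e-05). In contrast, the inhibitor gene Sfrp4 rose in every injured library but unevenly, from 1.44, 1.86 and 1.86 CPM to 25.4, 67.7 and 303 CPM (log2 fold change 6.26, SE 0.95, edgeR adjusted p = 0.000417), with a log2 fold change of 4.75 without injured replicate 3. Frzb rose 6.79-fold, and Draxin had 17, 17 and 14 counts in Sham and 112, 357 and 971 counts in injured libraries. Without injured replicate 3 the log2 fold change of Draxin was 3.94. Sfrp2 passed the test (edgeR adjusted p = 0.00626) with overlapping groups, 58, 82 and 74 counts in Sham and 4454, 69 and 1396 counts in injured libraries, and without injured replicate 1 its log2 fold change was 3.39.

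Clock genes had 10 of 20 genes tested lower and 1 higher (median -0.54). Arntl had 23.9, 22.03 and 29.96 CPM in Sham and 7.40, 10.5 and 5.68 CPM in injured libraries (log2 fold change -1.68, SE 0.28, edgeR adjusted p = 0.000738) and Nr1d1, its repressor, 445, 451 and 403 CPM in Sham and 199, 111 and 152 CPM in injured libraries (log2 fold change -1.49, SE 0.26, edgeR adjusted p = 0.000907). Npas2 and Hlf fell by 2.49-fold and 2.30-fold. Dbp overlapped, with 175, 203 and 119 CPM in Sham and 229, 102 and 221 CPM in injured libraries (log2 fold change 0.15, SE 0.31, edgeR adjusted p = 0.695). The rise of Per2 (edgeR adjusted p = 0.0367) was lost in 8 alternatives, each single Sham library among them. The hour of collection is not given in the sources used here.

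Matrix genes rose with exceptions on the falling side. Of collagen chains, 22 of 38 were higher and 8 lower (median 1.62), and the summed level was 552% of the Sham mean. The share higher was 57.9% against 22.1% of all genes tested. The share lower, 21.1%, was near the 17.5% of all genes tested. Col1a1 and Col3a1, of fibrillar collagens I and III, had 310.2, 376 and 325 CPM in Sham and 5425, 4444 and 5632 CPM in injured libraries (log2 fold change 3.94, SE 0.20, edgeR adjusted p = 5.07e-07) and 491, 553 and 472 CPM in Sham and 3797, 5144 and 7879 CPM in injured libraries (log2 fold change 3.47, SE 0.26, edgeR adjusted p = 5.32e-06). Chains of basement membrane collagen IV moved in opposite ways. Col4a1, of the common network, had 234, 215 and 239 CPM in Sham and 1169.6, 2329 and 1836 CPM in injured libraries (log2 fold change 2.96, SE 0.24, edgeR adjusted p = 9.55e-06). Col4a5 and Col4a6, of specialized epithelial and smooth muscle membranes, had 334, 256 and 309.8 CPM in Sham and 82.5, 73.1 and 96.5 CPM in injured libraries (log2 fold change -1.84, SE 0.17, edgeR adjusted p = 1.71e-05) and 229, 192 and 222 CPM in Sham and 52.1, 48.6 and 62.3 CPM in injured libraries (log2 fold change -1.98, SE 0.15, edgeR adjusted p = 4.79e-06). Col4a3 fell by 3.13-fold. Col9a1 fell from 100.1, 74.7 and 106 CPM to 16.6, 5.09 and 5.05 CPM (log2 fold change -3.40, SE 0.51, edgeR adjusted p = 0.000382), or by 4.21 on the log2 scale without injured replicate 1.

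The list of elastic fiber and basement membrane genes had 7 of 32 genes tested lower and 11 higher (median 0.22). These shares were 21.9% lower and 34.4% higher, against 17.5% and 22.1% of all genes tested. Laminin genes split, with Lamc3 lower by 7.28-fold and Lama3 by 3.44-fold and Lamb3, at 3, 2 and 2 counts in Sham and 9, 28 and 24 counts in injured libraries, higher. Fbn2 fell and Eln rose (-1.46 and 2.01 on the log2 scale), whereas Fbn1 did not pass at 0.55, under the 1.5-fold threshold. Fbln1 and Fbln2 took opposite directions, at -0.88 and 3.14.

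Antioxidant genes were lower in 9 of 32 genes tested and higher in 9 (median 0.08, all genes 0.01). This was 28.1% in each direction, against 17.5% lower and 22.1% higher of all genes tested. The glutathione transferase genes Gsta1 and Gsta2, which are near-identical and so uncertain one by one, fell by 8.76-fold and 7.94-fold. Gstp1 had 638, 905 and 678 CPM in Sham and 182, 279 and 230.0 CPM in injured libraries (log2 fold change -1.69, SE 0.20, edgeR adjusted p = 9.29e-05) and Nqo1 40.7, 45.8 and 47.9 CPM in Sham and 14.1, 10.6 and 15.3 CPM in injured libraries (log2 fold change -1.75, SE 0.14, edgeR adjusted p = 8.39e-06). Gsr, Gpx1 and Cat rose by 5.01-, 2.70- and 1.99-fold. The rise of Hmox1 rested largely on injured replicate 2 (3.72 on the log2 scale, 1.95 without it). The call of Gpx3, the gene of the list with the highest CPM in Sham, was lost in 8 alternatives (edgeR adjusted p = 0.0468, up to 0.137).

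Genes of cell division were higher in 23 of 28 and lower in 0 by edgeR and DESeq2 (27 higher and 0 lower at an unadjusted p under 0.05, median 2.39). Mki67 had 2.88, 3.73 and 3.38 CPM in Sham and 12.4, 39.9 and 32.3 CPM in injured libraries (log2 fold change 3.08, SE 0.44, edgeR adjusted p = 0.000275) and Top2a 0.831, 1.36 and 1.24 CPM in Sham and 7.46, 30.1 and 25.2 CPM in injured libraries (log2 fold change 4.19, SE 0.56, edgeR adjusted p = 0.000192). Injured replicate 1 was the lowest injured library in both. Pcna did not pass the fold threshold (log2 fold change 0.44, SE 0.08, edgeR adjusted p = 0.000864).

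Markers of other cells moved alongside these groups. Leukocyte markers were higher in 19 of 19, with summed levels of 333, 349.5 and 347 CPM in Sham and 4466, 4369 and 4414 CPM in injured libraries. Blood endothelium was higher in 10 of 12 (sum 867, 871 and 902 against 2331, 2329 and 2389 CPM), and fibroblast and pericyte genes in 10 of 12 (sum 3575, 4008 and 3585 against 9808, 5777 and 7311 CPM). The defining fibroblast genes Pdgfra and Dcn did not pass, at 0.16 and 0.21, and Dcn fell by 0.61 on the log2 scale without injured replicate 1, in which it had 79389 counts against 17541 and 33065. Lymphatic markers split, with 1 of 8 genes tested lower and 2 higher. Their summed levels overlapped, at 82.0% of the Sham mean, and Pdpn held 38.4% of the Sham sum. Flt4 had 15.6, 13.4 and 14.9 CPM in Sham and 16.8, 20.7 and 22.97 CPM in injured libraries (log2 fold change 0.46, SE 0.15, edgeR adjusted p = 0.0234), under the 1.5-fold threshold. Prox1 was at 0.54 and Lyve1 at -1.19 (edgeR adjusted p = 0.49 and 0.193). Lyve1 was called lower without injured replicate 2 (log2 fold change -2.73), and the call of Ccl21a as higher was lost without injured replicate 1. Cdh5, of all endothelium, rose 4.23-fold. The part of a changed mixture of cells in the falls above was not tested.

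Neighboring tissue was uneven between libraries. Of 18 retina markers, 5 were lower and 0 higher by edgeR and DESeq2 (0 higher at an unadjusted p under 0.05), but 11 were lower without injured replicate 2, and Glul, which glia and many other cells express, held 71.4% of the summed level in Sham. Glul, the glutamine synthetase, had 1944, 1757 and 2132 CPM in Sham and 757, 771 and 908 CPM in injured libraries (log2 fold change -1.26, SE 0.12, edgeR adjusted p = 2.02e-05). Among corneal epithelium genes 6 of 12 were lower, and 3 with the replicate block. Their summed levels, 101, 57.6 and 12.9 CPM in Sham and 120.2, 9.07 and 24.5 CPM in injured libraries, overlapped. Of 6 corneal stroma and endothelium markers tested, 2 were lower and 2 higher. Their summed level was 32.5% of the Sham mean, with 97.4% of the Sham sum from Ptgds. Crystallins were nearly absent from Sham libraries and uneven after injury, Cryaa with 1, 2 and 0 counts in Sham and 48, 607 and 541 counts in injured libraries and Cryba1 with 0, 1 and 0 counts in Sham and 21, 160 and 0 counts in injured libraries.

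Libraries labelled injured VEGFR3 iLECko were read for the levels of the falling genes. Over all genes tested, 1.04% differed between the injured groups by the same rule. Tyrp1 had 1823, 1765 and 1528 CPM there (log2 fold change 0.49, SE 0.23, edgeR adjusted p = 0.226 against injured VEGFR3 fl/fl), Myh11 391, 306 and 417 CPM (log2 fold change 0.34, SE 0.19, edgeR adjusted p = 0.284) and S100b 72.6, 46.5 and 63.1 CPM (log2 fold change -0.09, SE 0.22, edgeR adjusted p = 0.841), and none of these passed. Genes of the Y chromosome averaged 0.28, 0.20 and 0.21 on the log2 CPM scale in the libraries labelled iLECko. Injured VEGFR3 fl/fl libraries had 4.87, 4.94 and 0.21, so the injured groups differed in this as well as in label. The part of the sex of the pools in their differences was not tested. Some falling genes were higher in the libraries labelled iLECko than in injured VEGFR3 fl/fl irises. The alternatives were run only for injured against Sham, so these calls between the injured groups were not checked under them. Eya1 had 34.2, 38.1 and 40.7 CPM (log2 fold change 0.90, SE 0.16, edgeR adjusted p = 0.0407), Bmp7 107, 108 and 101 CPM (log2 fold change 0.64, SE 0.12, edgeR adjusted p = 0.0447) and Gldc 108, 91.2 and 84.4 CPM (log2 fold change 1.32, SE 0.15, edgeR adjusted p = 0.0214). Ppargc1a had 17, 18.2 and 17.3 CPM (log2 fold change 0.88, SE 0.17, edgeR adjusted p = 0.0421) and Cldn2 107, 117 and 145 CPM (log2 fold change 1.12, SE 0.17, edgeR adjusted p = 0.0278). The levels of Eya1, Bmp7 and Ppargc1a stayed below the Sham range, that of Gldc overlapped it and that of Cldn2 lay above it. The fall of Cldn2 after injury (-0.64 on the log2 scale, edgeR adjusted p = 0.00998) was not called without Sham replicate 3 or injured replicate 1. Both comparisons use the same injured VEGFR3 fl/fl libraries, so the values are set side by side only. Flt4 had 27.9, 20.96 and 27.4 CPM in the libraries labelled iLECko, none below the range of injured VEGFR3 fl/fl.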

How the data were processed

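Irises of 9 libraries, 3 pooled irises each, had been sequenced with single-end reads of 50 bases after a TruSeq mRNA kit. The authors deposited expected counts per gene, of which 9.832% to 10.32% in a library were not whole. The processing notes name mm10, HISAT2 2.0.4, Bowtie2 2.2.5 and DESeq2 1.4.5, while the counting program and annotation are not given in the sources used here. The deposited counts were rounded to whole numbers, as the tests require. A combined table held identical values and group averages and was not used. Depth was 16617199 to 18306363 counts, and the counting intervals (95%, exact) and the floor of 3 counts per library cover counting error only.

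Genes were filtered by filterByExpr, scaled by TMM and tested with the quasi-likelihood F test of edgeR 4.0.16 in R 4.3.3, with group as the only term over all 9 libraries, since the 3 groups then share 1 estimate of the spread. P-values were adjusted by Benjamini-Hochberg, and the SE is the log2 fold change over the square root of F. List sums were compared by exact two-sided permutation. DESeq2 1.42.0, other scalings and filters, other fold thresholds, 6 libraries only, a Y-linked covariate, a replicate block and each library left out were alternatives. On simulated data of 14871 genes, 173 of 200 genes changed 3-fold were recovered (86.5%), 0 in the wrong direction, with 3 false calls. Replicates of a group differed beyond sampling noise. Promoters and gene positions came from RefSeq GRCm38.p6, the same build as mm10, and 917 of 917 list and named genes had a position.

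The members and the 38 gene lists were chosen with earlier results of these data known. Named were the 15 steepest falls among genes of at least 5 CPM in Sham without overlap, the 15 largest losses of CPM, the 5 largest gains of CPM in tissue, matrix, metabolism and division lists, and in each list its defining members, the 5 largest falls, the 3 largest rises and the member with the most CPM in Sham. Flt4, Prox1, Lyve1, Cdh5, Atp6v1c2 and Cacna1e were named because the study uses them. Chosen after their values were seen were Myocd, Actg2, Cald1, Prkg1, Rgs5, Abcc9, Myo5a, Atp7a, Mreg, Myh1, Acta1, Th, Chat, Dbh and Cryba1. Some genes that this rule names are not reported here.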

Additional observations from a re-analysis of the deposited data

How the results depend on the processing

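The counts of genes lower after injury and of genes higher after injury stayed within 1.5 times the values reported (2630 and 3323) under every scaling, filter and tool run. Lower genes numbered 3523 with library size alone, 2629 with RLE, 2704 with upper quartile scaling, 2695 without a filter, 2525 with 6 libraries only, 2652 with the Y-linked covariate and 2662 with DESeq2. Without a fold threshold 4269 genes were lower, and 1599 with a 2-fold threshold. Leaving out any 1 of the 9 libraries gave 2448 to 2672 lower genes, the lowest without Sham replicate 1 and the highest without injured replicate 1, and 3149 to 3352 higher genes, the highest without iLECko replicate 1.

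Replicate numbers did not pair the libraries: same-numbered Sham and injured libraries deviated with correlations of -0.18, -0.24 and 0.02. With the replicate block 2607 genes were lower and 3243 higher. Sham replicate 1 correlated best with injured replicate 2 (0.32), so that not every library was closest to its own number.

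Over all alternatives the calls of named genes were kept in 5841 cases, lost in 119 and gained in 33, and 1 reversed: Dcn, uncalled at 0.21, ran from -0.6102 without injured replicate 1, the library in which it was highest, to 0.5922 without injured replicate 2. List medians moved by more than the spread between replicates in 38 of their alternatives and stayed within it in 591, and summed levels in 30 and 229. The causes were not tested. Depth limits the genes with few counts, such as Myf6 and Mybpc1 after injury, to bounds or wide intervals.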
